A study of Mus musculus with 12 samples.

Results

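Endogenous retroviruses of the ERVL family other than MERVL and its MT2 terminal repeats were followed in 2-cell mouse embryos with and without maternal Kdm4a. Their members were the repeat names with class LTR and family ERVL in the annotation of the count tables, without MERVL-int, MERVL_2A-int, ERVL-B4-int, ERVL-int and the names that start with MT2. This left 101 of the 111 ERVL names, among 18538 repeat names in all. The names were chosen by annotation and not by any measured value. They comprised 12 internal parts, 10 MLT2 terminal repeats, 13 LTR16 names, 5 LTR33 names, 7 LTR40 and LTR41 names, 18 MER names, 3 rodent RMER terminal repeats, 29 other LTR names and 4 that fit none of these.

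The libraries came from C57BL/6 embryos collected 1.5 days after fertilization, 6 per genotype, and total RNA was sequenced after depletion of ribosomal RNA. Embryos of the WT group (m+/p-) arose from wild-type oocytes and those of the KO group (m-/p-) from Kdm4a knockout oocytes, and knockout sperm was used for both. The WT group therefore had no working paternal allele either, and the contrast is the maternal allele together with what the oocyte stored. Kdm4a encodes a demethylase of histone H3. The labels give neither the number of embryos per library nor that of females, so p-values measure the spread between these libraries.

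Total counts ran from 7952526 to 18902360 per library. MERVL-int, whose transcripts mark the 2-cell stage, ran from 45234 to 91277 normalised CPM (counts scaled to a common library size with TMM factors) in WT and from 19687 to 39592 in KO, so the stage label had its marker in every library. Its log2 fold change of KO over WT was -1.04 (SE, the standard error, 0.19; edgeR adjusted p = 0.0159). WT replicate 2 had the lowest TMM factor (0.767) and KO replicate 5 the lowest total, and the calls are also given without both.

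ERVL elements are remnants of old germline infections, named after a primer binding site that matches a leucine transfer RNA. A complete copy has an internal part with the genes for the capsid and the polymerase between a pair of long terminal repeats (LTRs), which hold the promoter; recombination between the LTRs leaves most copies as lone LTRs. In mouse, MERVL is young and is transcribed in the 2-cell embryo, whereas MLT2, LTR16, LTR33 and many MER names are fossils shared by many mammals, and RMER names are found in rodents. A count per name depends on the number and length of its copies, so the order of names below is one of counts, not of activity per copy. Copies that lie inside genes can also take in reads from the genes' transcripts, which was not tested.

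Summed over all 101 names, these elements held a mean of 0.819% ± 0.0276 of WT counts and 0.929% ± 0.0483 of KO counts (SD, n = 6 each). The lowest, median and highest WT libraries stood at 0.795%, 0.811% and 0.868%, and the KO libraries at 0.874%, 0.928% and 0.990%. All 6 KO libraries lay above all 6 WT libraries. In RNA of whole embryos, a change in the number of cells with an RNA and a change in its amount per cell cannot be told apart. The direction of the summed share depended on the denominator. The MERVL and MT2 names alone held 18.9% ± 2.55 of all counts in WT and 11.9% ± 2.02 in KO, and a lower value of so large a part lifts the shares of all other names. Against the counts outside MERVL and MT2 alone, the direction stayed, with 1.01% ± 0.0317 in WT and 1.05% ± 0.0431 in KO and 3 KO libraries above every WT library. Against the counts outside the LTR class, the summed names stood at 1.86 ± 0.110 per 100 counts in WT and 1.78 ± 0.0884 in KO, with 3 KO libraries below every WT library. Within the ERVL family, their part was 4.23% ± 0.732 in WT and 7.45% ± 1.61 in KO, again without overlap between the groups.

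**Figure D1:**
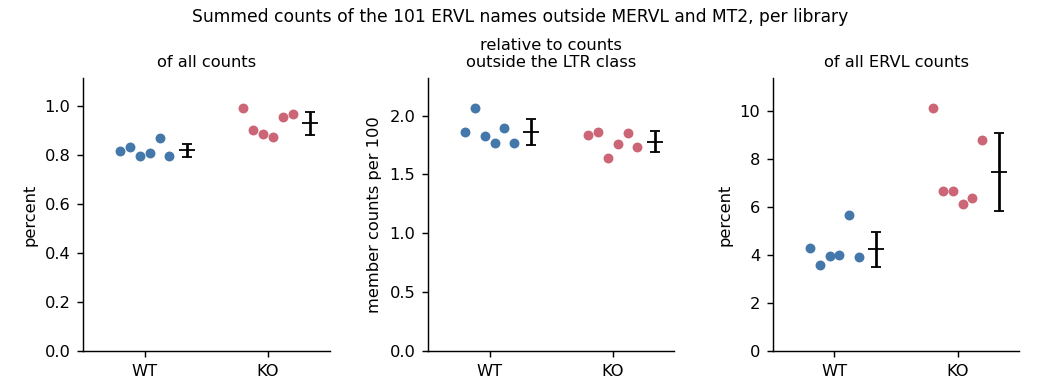
Summed counts of the 101 ERVL names outside MERVL and MT2 in each library (points), with the group mean and SD (bars, n = 6), as percent of all counts, per 100 counts outside the LTR class and as percent of the ERVL counts. KO libraries lie above WT in the first and last panels (0.929% against 0.819%, and 7.45% against 4.23%), but not in the middle one (1.78 against 1.86).

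The counts were concentrated in few names. The 10 most counted held 74.4% ± 2.05 of the summed counts in WT and 69.5% ± 3.04 in KO. LTR75, a terminal repeat, held 28.1% ± 3.28 in WT and 22.8% ± 4.05 in KO, and 5 of the 6 KO libraries lay below every WT library. RMER15, a rodent terminal repeat, held 13.8% ± 1.03 and 15.8% ± 1.14, with 5 KO libraries above every WT library. MLT2B5, a terminal repeat of the old MLT2 group, held 6.70% ± 1.55 and 3.93% ± 0.962. The 18 MER names together took 7.27% ± 0.435 of the summed counts in WT and 8.97% ± 1.10 in KO, where no KO library overlapped with WT. These are parts of a single sum, so lower shares of LTR75 and MLT2B5 lift those of the other names. In the fit below, none of the 18 MER names was called.

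Each name was then compared between the genotypes in a fit over all repeat names. Of the 101 names, 95 had enough counts to be tested, 31 of them with a mean under 10 normalised CPM. A single member, LTR82B, rose in KO (edgeR quasi-likelihood test, adjusted p under 0.05 over all 3312 tested names); none fell and 94 did not pass. Over all tested names, 0.151% were called higher and 1.27% lower, so 1.05% called higher and 0 called lower among 95 is a matter of 1 name. At an unadjusted p under 0.05, 8 members were higher and 5 lower, that is 8.42% and 5.26%, beside 5.5% and 7.91% of all tested names. DESeq2 gave an adjusted p for 86 members and for 2027 names in all. It called 2 members higher and 1 lower, beside 2.07% higher and 6.27% lower of those names. Without WT replicate 2 and KO replicate 5, edgeR called 1 higher and 0 lower. The log2 fold changes were positive for 58 members and negative for 37, with a median of 0.08 beside 0.01 for all tested names. The 10 MERVL and MT2 names, by the same fit, had a median of -0.87, none of them was positive and 8 were called lower. The 103 tested names of the ERVL-MaLR family, the nonautonomous relatives of ERVL, had a median of -0.01 with 0 called higher and 2 lower. At an unadjusted p under 0.05 (edgeR), 7 of these 103 names were higher and 35 lower.

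TMM sets these values against the bulk of repeat names. With scaling by total counts the median of all names moved to 0.32 and that of the members to 0.39. The calls among the 95 members went to 18 higher (18.9%) and 1 lower (edgeR, adjusted p), beside 10.8% higher and 0.996% lower of all names. These shares were not matched for level. Of the 3312 tested names, 1867 had a mean under 10 normalised CPM, against 31 of the 95 members. The member called lower under that scaling was MLT2B5, at -0.59 (adjusted p = 0.0292). LTR82B (1.57), MER68 (0.73), MLT2B2 (0.69), LTR33 (0.64) and RMER15 (0.38) were among the 18, with adjusted p from 0.00776 to 0.0300. LTR75 (-0.13), LTR83 (-0.10), LTR82A (-0.044), LTR16D (-0.036) and MLT2B1 (-0.026) kept a negative sign but came nearer to 0 than in the values below. The excess of the members' median over that of all names was 0.07 under both scalings.

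**Figure D2:**
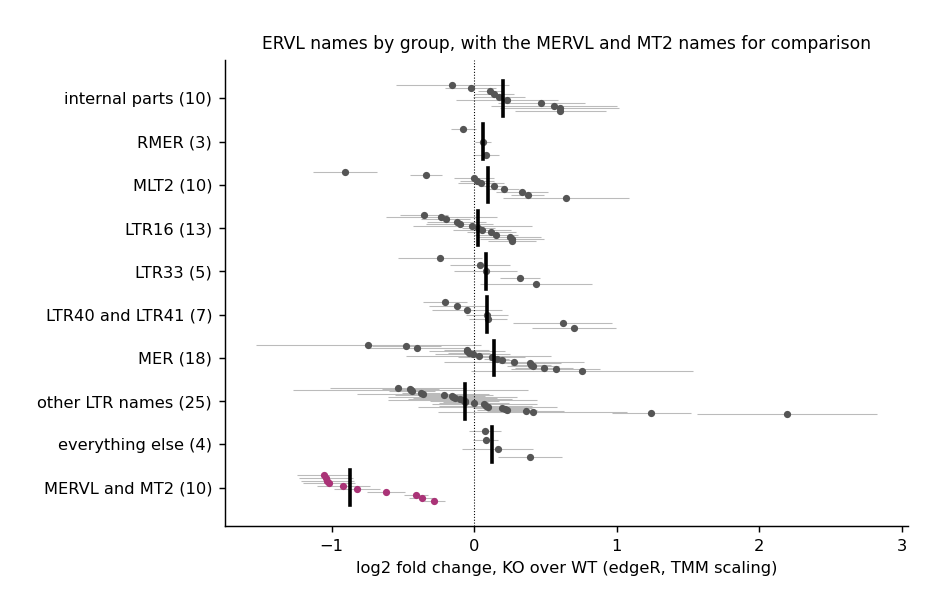
Log2 fold change of KO over WT for each of the 95 tested ERVL names (points; bars are standard errors), grouped by name, with the 10 MERVL and MT2 names in the lowest line; thick vertical marks are medians. The medians of the 9 groups lie between -0.07 and 0.20, and that of the MERVL and MT2 names at -0.87.

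By group of names, the medians lay close together. The 10 tested internal parts had a median log2 fold change of 0.20 with 8 positive values, the 18 MER names 0.14 with 11, the 10 MLT2 names 0.10 with 7, the 7 LTR40 and LTR41 names 0.09 with 4, the 5 LTR33 names 0.08 with 4, the 3 RMER names 0.06 with 2, and the 13 LTR16 names 0.03 with 7. The 25 other LTR names had a median of -0.07 with 11 positive values, and the 4 names outside these groups one of 0.12 with 4. The precision differed between names. The 95% interval of the log2 fold change (SE and a t distribution with 10 degrees of freedom) lay within -0.5 and 0.5 for 22 members and within -1 and 1 for 67. For the rest, the interval reached past 1 or below -1, so a change of that size was not bounded. The rest were not only rarely counted names. They included MLT2B5, with 3889 to 9479 raw counts per library and an interval from -1.40 to -0.41. They also included LTR82B, the called member, with an interval from 0.62 to 1.87. What set the width of each interval was not tested.

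**Figure D3:**
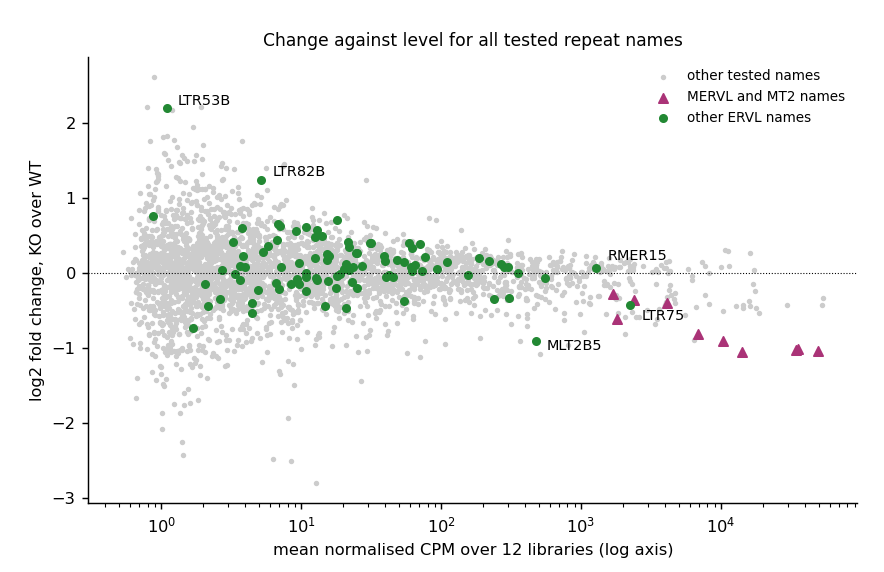
Log2 fold change of KO over WT against the mean normalised CPM (log axis) for all 3312 tested repeat names: grey, other names; green, the 95 ERVL names; purple triangles, the 10 MERVL and MT2 names. LTR53B and LTR82B lie highest among the green points at means of 1.10 and 5.21 normalised CPM. MLT2B5 lies at -0.91, a height near the median of the MERVL and MT2 names (-0.87). Its mean of 476 normalised CPM is far under that of MERVL-int.

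LTR82B is a rarely counted LTR. Its raw counts ran from 24 to 56 per library in WT and from 33 to 163 in KO. On the normalised scale, the lowest, median and highest WT libraries stood at 2.19, 3.25 and 3.81 CPM and the KO libraries at 3.85, 8.39 and 9.42. All 6 KO libraries lay above all 6 WT libraries, though KO replicates 2 and 5, at 4.71 and 3.85, lay close to the WT values. Groups without overlap were found in 0.725% of all tested names with KO higher and 1.39% with KO lower; among members LTR82B was the case with KO higher and there was none with KO lower. Its log2 fold change was 1.24 (SE 0.28, adjusted p = 0.0402). The call was lost when any 1 of 9 libraries was left out (each of the 12 but WT replicate 2 and KO replicates 2 and 5), with adjusted p up to 0.0997, and with no filter on low counts (adjusted p = 0.0946). With the replicate number as a block, the call was also lost (edgeR adjusted p = 0.147). Without WT replicate 2 and KO replicate 5 together it held.

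LTR82A carries the sister name and had a value of opposite sign. It averaged 61.7 ± 12.5 normalised CPM over the WT libraries and 47.6 ± 5.49 over the KO libraries (SD, n = 6), with a log2 difference of -0.37 (SE 0.13, adjusted p = 0.196), and every KO library was under the median of WT. LTR82B amounted to 5.12 ± 1.13 counts per 100 of LTR82A among WT libraries and 15.3 ± 4.63 among KO libraries, a ratio within each library that needs no scaling. The 6 KO libraries, from 7.71 to 20.3, lay above the 6 WT libraries, from 3.35 to 6.75. LTR82B was named for a higher and LTR82A for a lower KO value. The separation of their ratio follows largely from that choice and is no separate evidence.

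LTR53B had the largest positive value, a log2 difference of 2.19 (SE 0.63, adjusted p = 0.100), but with very few reads. Raw counts were 0 to 12 per library in WT and 8 to 53 in KO. The normalised levels ran from 0 to 0.849 CPM in WT and from 0.534 to 2.93 in KO, and 5 KO libraries lay above every WT library. Its relative LTR53 (chosen after its values were seen) had a log2 difference of -0.08 (SE 0.53, adjusted p = 0.978).

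The MLT2 terminal repeats had values of both signs. MLT2B5 stood at 378, 589 and 980 normalised CPM in the lowest, median and highest WT library and at 207, 348 and 454 in KO. Every KO library was under the median of WT, and 3 lay below every WT library. The log2 fold change was -0.91 (SE 0.22, 95% interval -1.40 to -0.41), which missed the threshold in the fit over all names (edgeR adjusted p = 0.0552). It passed when names of simple repeats and low complexity were left out of the fit (edgeR adjusted p = 0.00926). The same held with a minimum mean of 1 CPM (0.0441), without WT replicate 5 (0.0344), under total-count scaling (0.0292) and with DESeq2 (0.00140). It missed with RLE scaling (edgeR adjusted p = 0.0687), upper-quartile scaling (0.0601), no filter on low counts (0.184) and the replicate number as a block (0.0829). Leaving out WT replicate 2 and KO replicate 5 together, it also missed (0.0750). Without each single library the adjusted p ran from 0.0344 to 0.135.

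MLT2B1 stood at 287, 342 and 430 normalised CPM in the lowest, median and highest WT library and at 231, 264 and 339 in KO. Of the KO libraries, 5 lay below every WT library. The log2 fold change was -0.34 (SE 0.11, adjusted p = 0.157). MLT2B2 had the opposite sign. It stood at 45.5, 62.6 and 70.5 in WT and at 68.2, 81.1 and 90.9 in KO, where 5 KO libraries lay above every WT library, with a log2 fold change of 0.38 (SE 0.12, edgeR adjusted p = 0.125; DESeq2 adjusted p = 0.0412). MLT2F averaged 353 ± 40.3 normalised CPM over the WT libraries and 354 ± 80.2 over the KO libraries (SD, n = 6), with a 95% interval of the log2 fold change from -0.32 to 0.32. The other 6 names (chosen after their values were seen) were all positive and none passed. They ran from 0.02 for MLT2C1, with means of 61.3 and 62.3 normalised CPM, to 0.65 for MLT2E, with means of 5.33 and 8.42 (adjusted p = 0.970 and 0.579).

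**Figure D4:**
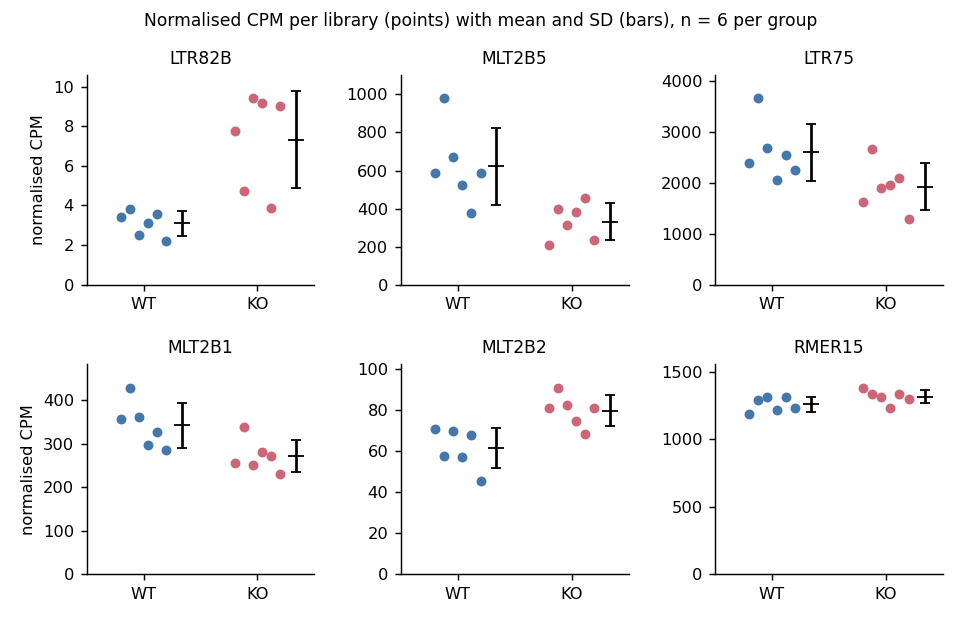
Normalised CPM of 6 ERVL names in each library (points), with the group mean and SD (bars, n = 6); every axis starts at 0. LTR82B is higher in all KO libraries, MLT2B5, LTR75 and MLT2B1 have lower KO means with overlapping groups, MLT2B2 has a higher KO mean (79.7 against 61.3), and RMER15 is nearly level (1317 against 1260).

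LTR75, the most counted member, stood at 2056, 2462 and 3655 normalised CPM in the lowest, median and highest WT library and at 1295, 1924 and 2661 in KO. WT replicate 2 was the highest of WT, KO replicate 2 was the highest of KO, and 4 KO libraries lay below every WT library. The log2 fold change was -0.43 (SE 0.16, adjusted p = 0.222), and it moved between -0.55 and -0.31 when single libraries were left out, with adjusted p from 0.0813 to 0.390. LTR83, a rarely counted LTR, had a log2 difference of -0.45 (SE 0.20, adjusted p = 0.328) from a mean of 17.2 to 12.5 normalised CPM. LTR16D, the most counted of the LTR16 names, averaged 266 ± 68.6 over the WT libraries and 208 ± 37.5 over the KO libraries (SD, n = 6), a log2 difference of -0.35 (SE 0.17, adjusted p = 0.379).

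RMER15 was among the steadiest of the abundant members. It stood at 1189, 1263 and 1317 normalised CPM in the lowest, median and highest WT library and at 1236, 1324 and 1384 in KO. Its coefficient of variation between libraries was 4.26% in WT and 3.79% in KO, within ranges of 4.17% to 32.3% and 3.79% to 29.2% for the 25 members at or above a mean of 50 normalised CPM. The log2 fold change was 0.06 with a 95% interval from -0.06 to 0.19 (edgeR adjusted p = 0.696). RMER10A and RMER10B had log2 fold changes of -0.08 and 0.08, with intervals from -0.27 to 0.12 and from -0.11 to 0.28. The sign of RMER10A turned under total-count scaling (0.24). RLTR28, a terminal repeat with a rodent name, averaged 291 ± 12.1 over the WT libraries and 308 ± 41.7 over the KO libraries (SD, n = 6).

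Among the MER names, MER68 averaged 51.3 ± 9.13 normalised CPM over the WT libraries and 67.7 ± 11.2 over the KO libraries (SD, n = 6), with 4 KO libraries above every WT library. Its log2 fold change was 0.40 (SE 0.14, adjusted p = 0.178). MER76 had a log2 difference of 0.49 (SE 0.20, adjusted p = 0.292), and all 6 KO libraries lay above the WT median of 11.8 normalised CPM. MER21B, the most counted MER name, averaged 206 ± 27.5 over the WT libraries and 230 ± 10.9 over the KO libraries. LTR33, an LTR of old mammalian copies, stood at 55.0 ± 10.1 and 68.9 ± 11.6, with a log2 difference of 0.32 (SE 0.14, adjusted p = 0.312). LTR41C, chosen after its values were seen, had a mean of 13.7 in WT and 22.2 in KO and a log2 difference of 0.70 (adjusted p = 0.305). LTR40a stood at 63.2 ± 3.93 and 67.7 ± 15.2, so that its KO libraries, from 50.7 to 91.5, spread on both sides of WT.

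Internal parts were also set beside terminal repeats. Counts are summed over all copies of a name, so whether single RNAs span both parts was not tested. RMER15-int, the most counted internal part, stood at 225, 265 and 282 normalised CPM in the lowest, median and highest WT library and at 250, 279 and 329 in KO (log2 fold change 0.11, interval -0.07 to 0.30, edgeR adjusted p = 0.633). It amounted to 20.5 ± 2.32 counts per 100 of RMER15 among WT libraries and 21.2 ± 2.41 among KO libraries. For other internal parts, paired with terminal repeats that share their name or number, the amounts were 140 ± 24.3 and 130 ± 32.0 per 100 for HERVL40-int against the LTR40 names, 14.9 ± 7.21 and 16.7 ± 2.65 for MER68-int against the MER68 names, and 1.60 ± 0.733 and 2.65 ± 0.965 for HERV16-int against the LTR16 names (WT and KO, SD, n = 6 each). MER70-int amounted to 8.63 ± 4.82 and 18.1 ± 14.4 per 100 of its terminal repeats, MER21-int to 2.36 ± 1.44 and 1.86 ± 0.726, HERVL74-int to 7.32 ± 3.37 and 6.62 ± 3.02, and ERV3-16A3_I-int to 348 ± 130 and 358 ± 165. LTR53-int ran from 11.6 to 2150.0 in WT, the highest value being that of WT replicate 2, and from 55.6 to 183 in KO. The WT and KO ranges overlapped in all 9 pairs. HERVL40-int itself stood at 157 ± 37.7 normalised CPM in WT libraries and 155 ± 40.1 in KO libraries, a log2 difference of -0.02 (adjusted p = 0.980) that was 0.30 with total-count scaling. HERV16-int had means of 8.54 and 13.0 and a log2 difference of 0.61 (adjusted p = 0.444). These pairs were chosen by their names.

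A further comparison set each member against MERVL-int. The fit was repeated with each library scaled to its MERVL-int count, so that a log2 value of 0 stands for the same change as MERVL-int. It was chosen after the data were seen. All 95 members had positive values, with a median of 1.15 beside 1.09 for all tested names, since this scaling moves every name up by about as much as MERVL-int was lower. Of the members, 79 (83.2%) were higher relative to MERVL-int at an adjusted p under 0.05 (edgeR), beside 64.8% of all tested names; none was lower, beside 0.121%. Since calls are rarer at low counts, the share at a mean of at least 10 normalised CPM was also taken, and 62 of 64 members (96.9%) and 1324 of 1444 names (91.7%) were then called higher. At 50 normalised CPM or more, the shares were nearly equal, with 24 of 25 members (96.0%) and 743 of 778 names (95.5%). The 2 members not called at 10 or more were MER70A and MLT2B5. RMER15 had a value of 1.15 (SE 0.22, edgeR adjusted p = 0.000640) and LTR75 one of 0.61 (SE 0.17, edgeR adjusted p = 0.00647). MLT2B5 had a value of 0.15 (SE 0.16, interval -0.19 to 0.50, edgeR adjusted p = 0.373). Members that did not pass this test are not shown by it to have changed like MERVL-int.

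Levels of some members were also set against those of a marker RNA from library to library. MLT2B5 amounted to 0.926 ± 0.0942 counts per 100 of MERVL-int among WT libraries and 1.03 ± 0.0732 among KO libraries (SD, n = 6), although MERVL-int itself spanned 19687 to 91277 normalised CPM over the 12 libraries. On the log2 scale this ratio was higher by 0.15 in KO (exact permutation test over 924 regroupings, two-sided, p = 0.0606, adjusted p = 0.0727 over 6 ratios). Among the 6 WT libraries, MLT2B5 and MERVL-int had a Pearson r of 0.981 on log2 normalised CPM (exact permutation p = 0.0111) and a Spearman rho of 0.943 (exact p = 0.0167), and among the 6 KO libraries an r of 0.973 (exact p = 0.00139) and a rho of 1.0 (exact p = 0.00278). Without the 2 libraries farthest from the median of MERVL-int, r was 0.692 in WT (without replicates 2 and 5) and 0.964 in KO (without replicates 1 and 6). Adjusted over the 3112 relations computed, the p-values of r were 0.279 and 0.188, and the smallest any relation reached was 0.188.

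By the lower of its r values in both groups, MLT2B5 came 5th in likeness to MERVL-int among 769 names whose mean was 50 normalised CPM or more, outside the MERVL and MT2 names, after L1MdA_II, L1MdMus_II, RLTR12D and ORR1F-int. It was the only 1 of 25 members with an r of at least 0.9 in WT or in KO, beside 33 and 49 of 778 names. The median r of the 25 members was 0.17 in WT and -0.01 in KO. The points share the scaling of their library, and whether reads were shared between MLT2B5 and MERVL names was not tested.

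LTR75 and MLT2B1 were set against MTA_Mm-int, the internal part of the MT elements that are abundant in oocyte RNA. MTA_Mm-int had a log2 fold change of -0.43 in the same fit (SE 0.12, edgeR adjusted p = 0.0901). LTR75 amounted to 4.23 ± 0.406 counts per 100 of MTA_Mm-int among WT libraries and 4.24 ± 0.499 among KO libraries (n = 6; exact permutation p = 0.998), and MLT2B1 to 0.564 ± 0.0258 and 0.609 ± 0.0350 (exact permutation p = 0.0390, adjusted p = 0.0727 over 6 ratios). Against MERVL-int the log2 ratio was higher in KO by 0.61 for LTR75 and by 0.72 for MLT2B1 (exact permutation p = 0.0108 and 0.00433, adjusted p = 0.0325 and 0.0260). The fit relative to MERVL-int had a median of 1.09 over all tested names. At 50 normalised CPM or more, it called 743 of 778 names higher. A higher ratio to MERVL-int is therefore not particular to LTR75 and MLT2B1. The names in these 6 ratios were chosen after their values were seen, and an adjustment over 6 does not cover that choice.

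For MLT2B1 and MTA_Mm-int, r was 0.955 in WT and 0.984 in KO (exact permutation p = 0.00556 and 0.00139, adjusted 0.247 and 0.188), and rho was 0.943 and 1.0 (exact p = 0.0167 and 0.00278). Leaving out the 2 farthest libraries gave 0.954 for WT and 0.907 for KO. The r of LTR75 was 0.946 and 0.883 (exact permutation p = 0.00278 and 0.0250, adjusted 0.206 and 0.343), and rho was 0.943 and 0.886 (exact p = 0.0167 and 0.0333). Without the 2 farthest libraries it was 0.852 in WT but 0.258 in KO, so the relation of LTR75 in KO rested on KO replicates 2 and 6. Of 778 names, 39 in WT and 23 in KO had an r of at least 0.9 with MTA_Mm-int. By r, MLT2B1 came 18th in WT and 4th in KO, and LTR75 23rd and 31st. Over the 25 members, the median of these r values was 0.09 for WT and -0.07 for KO.

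**Figure D5:**
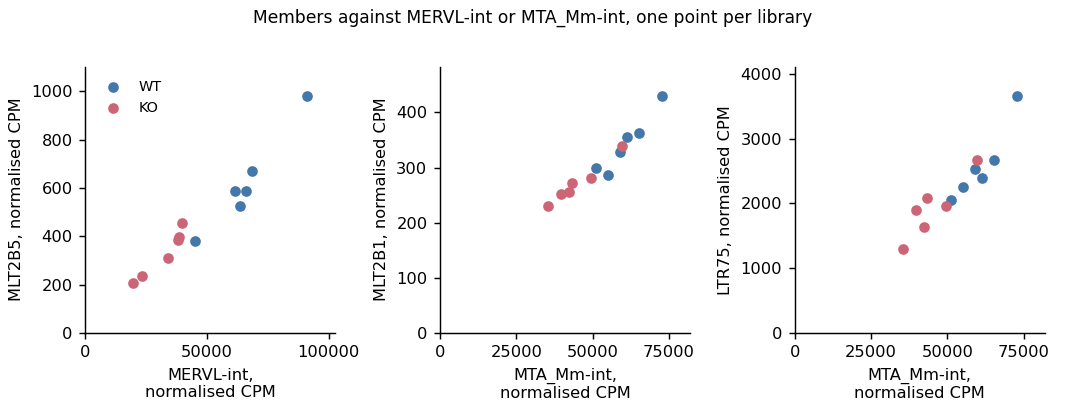
Normalised CPM of MLT2B5 against MERVL-int, and of MLT2B1 and LTR75 against MTA_Mm-int, with 1 point per library (blue WT, red KO); all axes start at 0. Within WT and KO, r was 0.981 and 0.973, 0.955 and 0.984, and 0.946 and 0.883 from the left to the right panel, but LTR75 in KO had an r of 0.258 without KO replicates 2 and 6.

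The remaining 6 members were too rarely counted for a test. They were LTR108b_Mam, LTR108c_Mam, LTR108d_Mam, LTR86B2, LTR52-int and MER76-int, each at 0 in some libraries and with at most 60 counts in any library. Nothing can be said of a change in them at this depth.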

How the data were processed

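For each repeat name the authors deposited estimated counts of reads; the names of the authors' tables carry words for unique reads and fractions. Values that were not whole numbered 0, so rounding changed nothing. Per the submitters' processing notes, mm10, Trimmomatic 0.32 and edgeR are named, without roles; aligner, repeat annotation, counting program and strand use were not given in the sources used here. Names of similar sequence may share reads. Without molecular identifiers, reads do not stand for separate molecules.

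All names were fitted together with edgeR 4.0.16 (R 4.3.3): filterByExpr, TMM, quasi-likelihood F test with genotype as the only term, Benjamini-Hochberg over 3312 names, threshold 0.05. The test was checked on simulated counts drawn from its own fitted spread, which does not test the calls above. Alternatives used limma 3.58.1 and DESeq2 1.42.0, other scalings, filters and left-out libraries. The fit relative to MERVL-int and the 6 ratios were added after the data were seen. Exact permutation tests took all regroupings of 6 against 6 libraries.

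Groups and replicate numbers came from the sample titles. Members, lists and rules were chosen with earlier results of these data known. The text names called members, the 10 most counted, the 5 higher and 5 lower with the smallest p, and the most counted of each group of names; others are said to be chosen after their values were seen, by matching names, or from the likeness ranking. No sequences of repeats were used here.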

Additional observations from a re-analysis of the deposited data

Results flagged for a closer look

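In 114 groups of 6 libraries checked, 9 had a highest or lowest library set apart from its nearest neighbour. The gap was more than Dixon's 95% critical share of the group's range. Chance alone marks about 1 group in 20 where groups are independent and normally distributed. The groups here share libraries and counts, so 9 of 114 does not measure an excess. WT replicate 2 gave 6 of the 9 marked groups. It was highest for the summed ERVL names among counts outside MERVL and MT2 (1.07%), for HERVL40-int (188 counts per 100 of the LTR40 names), for LTR75 (5.02 per 100 of MTA_Mm-int), for LTR53-int (2150.0 per 100 of the LTR53 names) and for LTR53B (33.3 per 100 of LTR53), and lowest for the names outside the name groups (3.21% of the summed counts). The LTR53 values rest on few counts. WT replicate 5 was highest for the summed names among ERVL counts (5.66%) and for LTR75 (5.60 per 100 of MERVL-int); MERVL-int was lowest of WT in that library. KO replicate 6 was highest for RMER10A (7.72% of the summed counts, next 6.30%).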

How the results depend on the processing

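Against 1 member called higher and 0 lower, the counts were 18 and 1 with total counts, 2 and 1 with DESeq2, 0 and 0 with no filter, 1 and 1 with a minimum mean of 1 CPM, and 1 and 1 without simple repeats; RLE, upper quartile, limma-voom with quality weights and the removal of WT replicate 2 with KO replicate 5 gave 1 and 0. Without single libraries they ran from 0 to 1 for higher and 0 to 1 for lower. The replicate number as a block gave 0 higher and 0 lower; same-numbered libraries had correlations of -0.071 to 0.155 and 1 of 6 was most like its own number, so the numbers are not taken to pair libraries. The median log2 fold change of members was 0.39 with total counts and ran from 0.06 to 0.10 without single libraries. Members higher relative to MERVL-int numbered 68 to 83 without single libraries (0 lower in each). The log2 difference of the summed share was 0.18 of all counts (0.16 to 0.20 without single libraries), 0.061 outside MERVL and MT2, and -0.066 against counts outside the LTR class. The signs of RMER10A (0.24) and MLT2F (0.29) turned with total counts; MLT2F, near 0, also turned with upper quartile (0.020), no filter (0.014), a minimum CPM (0.0011) and without simple repeats (0.0040), and ran from -0.078 to 0.11 without single libraries, and LTR40a from -0.0042 to 0.17. The cause was not tested. Of 439 values of single named members under other settings, 400 kept direction and side of the threshold. Members under 10 CPM rest on fewer counts than the others, and what limits their calls was not tested.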

Other observations

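The annotation also held 5 LTR names with an uncertain ERVL family, which were not members. LTR55, LTR87, LTR89, LTR89B and Eutr10 had log2 fold changes of -0.09, 0.28, 0.28, 0.67 and 0.42 (standard errors 0.36, 0.20, 0.44, 0.44 and 0.33), and none passed the test over all names (edgeR adjusted p from 0.563 to 0.961). LTR55, the most counted of them, averaged 18.5 ± 8.77 normalised CPM over WT libraries and 17.3 ± 5.92 over KO libraries (SD, n = 6).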
